A study of Mus musculus with 18 samples.

Results

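The nuclear-encoded subunits of the respiratory chain were followed in mouse liver. Members were taken by name: rows in both count tables whose symbol begins with Nduf plus a, b, c, s or v and a digit, or with Sdha to Sdhd, Uqcr, Cyc1, Cox4i, Cox5, Cox6, Cox7, Cox8 or Atp5, without pseudogenes. This gave 86 of the 20058 gene names that the tables share. Of these, 35 belong to complex I, 4 to complex II, 9 to complex III, 20 to complex IV and 15 to complex V. The prefixes also caught 3 assembly or coupling factors, Sdhaf1, Sdhaf2 and Atp5s, which are no subunits and were kept apart. Ndufa4 and its relative Ndufa4l2 carry a complex I name but were placed in complex IV, where Ndufa4 is known to sit, and Cox7a2l, a supercomplex assembly factor, was left there by its name.

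The respiratory chain passes electrons from NADH (complex I) and succinate (complex II) through ubiquinone, complex III and cytochrome c to oxygen at complex IV, and complex V, the ATP synthase, uses the proton gradient so made to form ATP. Most subunits come from nuclear genes and are imported into mitochondria, where they join a small core that mitochondrial DNA encodes, except in complex II, which is wholly nuclear. In liver, the chain oxidises what fatty acid oxidation and the citric acid cycle deliver, and transcription of many of its nuclear genes is known to use NRF1, GABPA and YY1 with coactivators of the PGC-1 family.

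Livers came from 18 mice of 8 weeks, 3 in each of 6 groups, all fed a diet with 45% of its calories from fat. C57BL6J mice were exposed to low-dose penicillin (LDP) from birth or left untreated as controls. Here males 8, 10 and 11 (LDP) were compared with males 5, 6 and 7 (untreated), and females 39, 52 and 54 (LDP) with females 29, 30 and 32 (untreated). These mice were weaned at week 4 and changed to the fat-rich diet at week 6. Germ-free Swiss Webster females were colonised at week 3 with bacteria taken from LDP females in mice 2, 5 and 8, or from untreated females in mice 1, 3 and 7, and the recipients received no drug themselves. The comparisons ask whether LDP, or the microbiota it shaped, goes with a different level of these transcripts within each table. The male and the female libraries were deposited in separate tables, so their levels are only set side by side.

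Counts per library ran from 70336366 to 74418889 in males and from 17937005 to 28646168 in females, and recipient 8 was the deepest female library. The 86 members held 0.937% to 1.293% of the counts of a library, with the highest share in recipient 8. All 10 hepatocyte markers examined, among them Alb and Ttr, were detected in every group. Summed markers of striated muscle stayed between 0.38 and 1.26 CPM (counts scaled to library size with factors from the trimmed mean of M values) and those of fat cells between 0 and 1.01 CPM. Of the other cell types, the 8 Kupffer cell markers summed to 360 to 390 CPM in LDP males against 419 to 521 in control males, and the 5 mesothelial markers to 8.29 to 21.9 CPM in LDP females against 5.2 to 6.35 in control females. The 10 hepatocyte markers summed to 113877 to 123321 CPM in LDP males against 99096 to 110139 in control males. By log2 change, 5 of these 10 were higher and 5 lower in LDP males. Fewer cells of a type and less RNA per cell cannot be told apart in such whole-tissue samples.

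In control males the most abundant subunit per length was Ndufa4, at 442 ± 25.1 CPM per kilobase (SD, n = 3), followed by the catalytic core of the ATP synthase, Atp5a1 (alpha subunit) at 327 ± 5.03 and Atp5b (beta subunit) at 283 ± 3.14 CPM per kilobase. The complexes overlapped widely on this scale. Leaving aside the isoforms of other tissues, the median level was 44.6 CPM per kilobase in complex I (range 2.38 to 229), 108 in complex II (40.6 to 143), 109 in complex III (77.1 to 135), 126 in complex IV (39.8 to 442) and 60.9 in complex V (12.4 to 327). Complex III was the most even, and complex I held both Ndufb9, at 229 ± 9.69, and Ndufb2, at 2.38 ± 0.078 CPM per kilobase, 2 accessory subunits of its membrane arm. Gene length in these values is that of the authors' gene models in the male table, and a long model lowers the value: that of Ndufb2 spans 5628 bases and that of Ndufa4 492 bases.

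**Figure D1:**
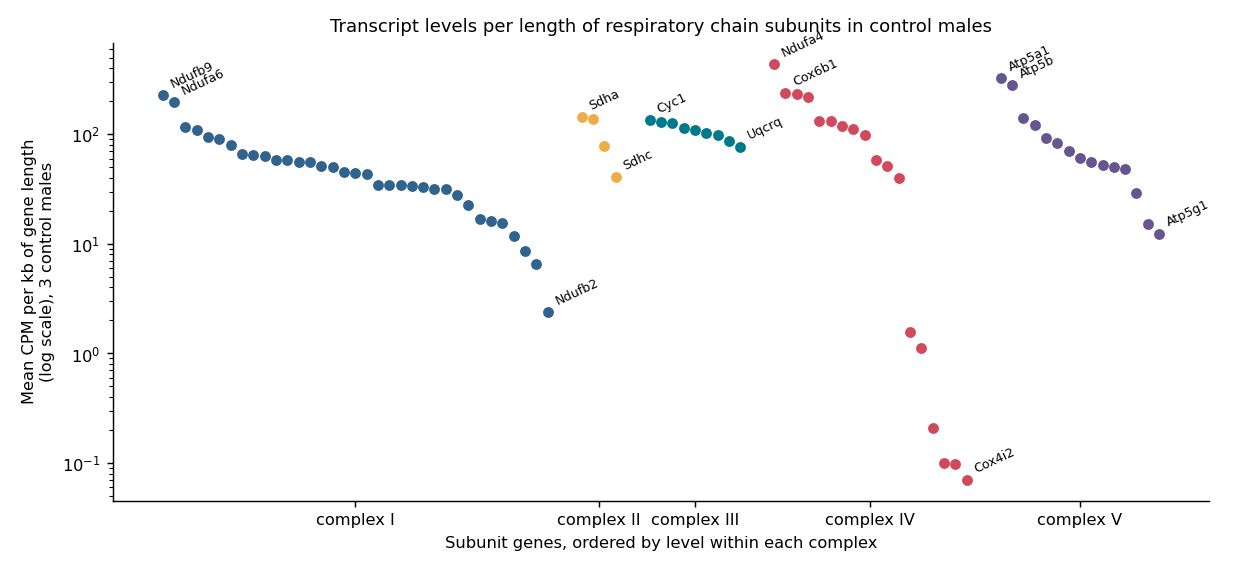
Mean CPM per kilobase of gene length in the 3 control males (vertical log axis) for each subunit gene, ordered by level within complexes I to V; Cox7b2 and Cox8c, at 0, and the 3 assembly factors are not drawn. Ndufa4 is highest at 442, and a tail of 6 complex IV genes, the isoforms of other tissues or states, lies below 2 CPM per kilobase.

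Complex IV has isoforms that other tissues use, and these were near or at 0 in liver. The testis isoforms Cox7b2 and Cox8c had 0 counts in all 18 libraries, where a count of 0 allows up to 3 counts, or 0.0403 to 0.0427 CPM in a male and 0.105 to 0.167 CPM in a female library. Cox8b, an isoform of heart, skeletal muscle and brown fat, had between 0 and 8 counts in a whole group, and Cox6a2, of heart and skeletal muscle, between 5 and 14. Cox4i2, known from lung and oxygen-sensing cells, had 7 to 17 counts in a group and Cox6b2, known from testis, 19 to 69. Cox7a1, the heart and muscle isoform, was measurable but low, at group means from 0.42 to 1.03 CPM, while its liver partner Cox7a2 lay between 82.5 and 133 CPM in single mice. The liver isoforms Cox6a1, Cox6b1, Cox8a and Cox4i1 all exceeded 100 CPM in each of the 18 mice. Cox4i2, Cox6a2, Cox7b2, Cox8b and Cox8c were too low to be tested in any comparison, and Cox6b2 in both female comparisons.

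In males, no subunit separated LDP mice from controls. Of the 86 members, 81 could be tested, 43 were higher and 38 lower in LDP males, and the median log2 change was 0.00 (range -0.11 to 0.48). None had an adjusted p under 0.05 by edgeR's quasi-likelihood test with Benjamini-Hochberg adjustment over 15438 genes (1 gene in all, 0.00648%), none had an unadjusted p under 0.05 (5.23% of all genes did), and DESeq2 called none of them either. The adjusted p-values given for single genes are all from this edgeR test, over the genes of the comparison. No member was higher in all 3 LDP males than in all 3 controls (5.7% of all genes were) or lower in all 3 (4.81%), and 50.7% of all genes had a log2 change above 0. The median log2 change was 0.00 in complexes I, II, III and V and 0.02 in complex IV. The 95% interval of a member's log2 change reached 0.18 to either side in the median.

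The smallest p in males belonged to Ndufb3, an accessory subunit of the membrane arm of complex I. It measured 43.7, 41.3 and 42.2 CPM in controls 5, 6 and 7 and 37.9, 38.4 and 42.0 CPM in LDP males 8, 10 and 11. LDP males 8 and 10 lay below all controls while LDP male 11 lay among them, and the log2 change was -0.10 (SE 0.0659, adjusted p = 0.92 by edgeR). The core subunits did not separate either. Ndufs1, which carries iron-sulfur clusters of the NADH-oxidising arm, measured 127, 131 and 121 CPM in controls and 142, 121 and 126 CPM in LDP males 8, 10 and 11. Ndufs7, a core subunit next to the ubiquinone site, had the lowest change of the 7 core subunits, at -0.11 (SE 0.0974, adjusted p = 0.921). The catalytic Sdha averaged 555 ± 8.79 CPM in control and 546 ± 22.7 CPM in LDP males, and Cyc1, the cytochrome c1 of complex III, 162 ± 3.48 and 162 ± 16.5 CPM (SD, n = 3 each). The largest changes were those of barely expressed complex IV isoforms. Cox6b2, at 0.229 ± 0.0402 CPM in control and 0.321 ± 0.0962 CPM in LDP males, had a log2 change of 0.48 with a 95% interval from -0.32 to 1.28.

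What varied among males was the mouse, across all complexes at once. Averaged as the median log2 difference from the control mean, the 81 tested members stood at 0.03 in LDP male 8, -0.12 in LDP male 10 and 0.07 in LDP male 11, against 0.02, -0.01 and -0.01 in controls 5, 6 and 7. LDP males 10 and 11 lay on opposite sides of all 3 controls. LDP male 10 was the lowest of the 6 mice for 63 of 81 members, when it was lowest for 19.7% of all genes, and LDP male 11 was the highest for 47, against 18.7% of all genes. The count of higher members therefore turned with the mouse left out: 68 of 81 were higher without LDP male 10 (median 0.06), but 13 of 81 without LDP male 11 (median -0.04) and 25 of 81 without LDP male 8 (median -0.02). Leaving out a control moved it to 51 without control 5, 31 without control 6 and 37 without control 7. Ribosomal protein genes moved with LDP male 10 as well: its median difference was -0.10 for 76 mitochondrial and -0.11 for 76 cytosolic ones, and its scaling factor, 1.025, was the highest of the 6; their part in the result was not tested.

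**Figure D2:**
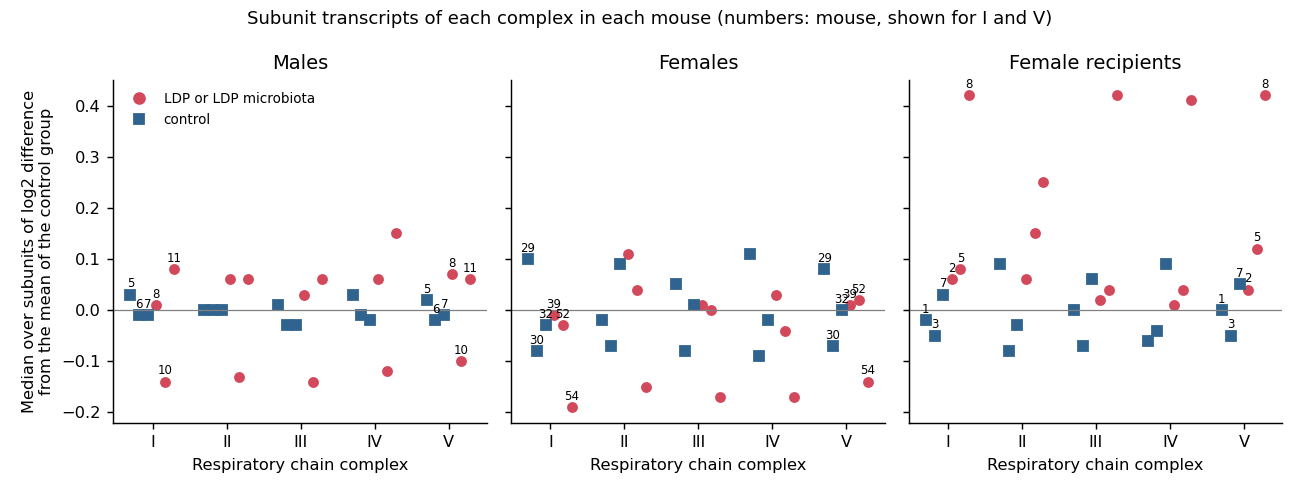
Median over the tested subunits of a complex of the log2 difference from the mean of the control group (vertical axis), for each mouse and complexes I to V, in males, females and recipients; circles are LDP or LDP-microbiota mice, squares controls. In complex I, LDP male 10 (-0.14) and LDP female 54 (-0.19) lie below the other mice, and recipient 8 (0.42) lies far above them. In complex II recipient 8, at 0.25, stands nearer to recipient 5, at 0.15.

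Among C57BL6J females no subunit passed either. The tested members, 80 of 86, were lower in 59 and higher in 21 cases, with a median log2 change of -0.05 (range -0.21 to 0.17), when 50.9% of all genes were above 0 and their median was 0.00. By edgeR with Benjamini-Hochberg adjustment over 12914 genes 0 members were called (0.0% of all genes), DESeq2 called 0, and 0 had an unadjusted p under 0.05 (4.51% of all genes). In 3 members all LDP females lay below all controls (4.07% of all genes) and in 0 above (4.97%). The median log2 change was -0.07 in complex I, 0.01 in complex II, -0.06 in complexes III and IV and -0.04 in complex V. Within complex I it was -0.13 for the 10 Ndufb subunits, which lie in the membrane arm, and -0.07 for the 7 core subunits, and the median 95% half-width of 0.24 was larger than either.

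The 3 members whose groups did not overlap all belonged to complex I, which supplied 35 of the 80 tested members. As 3 of 80, they were about as frequent as among all genes (4.07%), so their number does not set the members apart. Ndufb2 measured 45.2, 39.2 and 37.3 CPM in controls 29, 30 and 32 and 37.1, 36.9 and 34.3 CPM in LDP females 39, 52 and 54. The gap between the groups was thin, and the log2 change was -0.17 (SE 0.1, adjusted p = 0.999 by edgeR). Ndufb6, of the same arm, measured 54.2, 49.2 and 52.1 CPM in controls and 48.3, 47.2 and 44.9 CPM in LDP females, a log2 change of -0.15 (95% interval -0.35 to 0.05). The smallest p was again that of Ndufb3, with 34.7, 30.9 and 31.2 CPM in controls 29, 32 and 30 and 31.1, 28.3 and 26.8 CPM in LDP females 39, 52 and 54 (log2 change -0.17, adjusted p = 0.999 by edgeR). Its log2 change was 0.19 in recipients, so the 3 comparisons did not share a direction for this subunit.

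As in males, single mice carried the direction in females. The member median was 0.01, -0.01 and -0.17 in LDP females 39, 52 and 54 and 0.09, -0.08 and -0.02 in controls 29, 30 and 32. LDP female 54 was lowest for 57 of 80 members (24.1% of all genes) and control 29 highest for 47 (23.6% of all genes). Without LDP female 54, 41 of 80 were higher (median 0.00), and without control 29 it was 39 of 81 (median 0.00), close to an even split in both cases. It was 10 of 81 without control 30 (median -0.09) and 13 of 80 without either LDP female 39 or 52 (median -0.07 in both cases). With upper quartile factors 28 of 80 were higher. Mitochondrial ribosomal protein genes showed a similar spread, at -0.13 in LDP female 54 and 0.12 in control 29. The scaling factor of LDP female 54, 1.051, was the highest of the 12 female libraries. The part of these genes or of scaling in the result was not tested.

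Recipients of LDP-shaped microbiota had slightly higher levels of most subunits than recipients of control microbiota, in all 5 complexes, though no member passed the test. Of 80 tested members 72 were higher and 8 lower, with a median log2 change of 0.19 (range -0.70 to 0.62), when the median of all genes was -0.01 and 48.4% of them were above 0. Under edgeR with Benjamini-Hochberg adjustment over 12780 genes 0 members were called (1 gene in all, 0.00782%), the smallest adjusted p was 0.846, and DESeq2 called 0 with a smallest adjusted p of 0.401. An unadjusted p under 0.05 was found for 4 members (5.11% of all genes). In 19 members all 3 LDP-microbiota recipients lay above all 3 controls, when 6.1% of all genes did, and in 1 member, Atp5g1, they lay below, when 5.5% of all genes did. The median log2 change was 0.20 in complex I (32 of 35 higher), 0.17 in complex II (4 of 4), 0.18 in complex III (9 of 9), 0.18 in complex IV (13 of 14) and 0.22 in complex V (13 of 15). It was -0.02 for the 3 assembly factors.

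**Figure D3:**
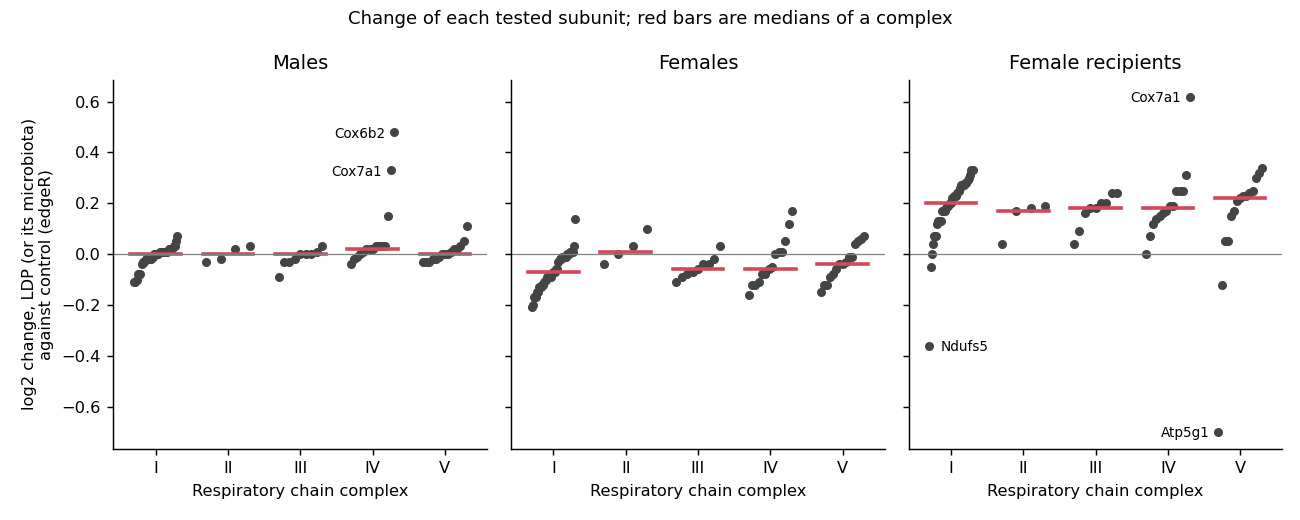
Fitted log2 change of each tested subunit (points) by complex, for LDP against control males, LDP against control females, and LDP-microbiota against control-microbiota recipients; red bars are medians of a complex. The points of recipients centre near 0.2 with Atp5g1 at -0.70, and those of males and females lie close to 0; the labelled Cox6b2, Cox7a1 and Ndufs5 are barely detected.

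The size of this difference rested on recipient 8. The member median was 0.04, 0.07 and 0.40 in LDP-microbiota recipients 2, 5 and 8, against -0.02, -0.05 and 0.05 in control-microbiota recipients 1, 3 and 7. Recipients 2 and 5 thus lay within or next to the range of the controls, while recipient 8 stood apart. It was the highest of the 6 mice for 74 of 80 members, when it was highest for 26.5% of all genes. Without it, 59 of 80 members were higher and the median was 0.07, and 15 members had changed sign. Leaving out any of the other 5 mice left 73 to 77 members higher and a median of 0.16 to 0.26.

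Recipient 8 also differed in other ways. It was the deepest female library and had the lowest scaling factor, 0.934. It was highest for 72 of 76 mitochondrial and 67 of 75 cytosolic ribosomal protein genes, with median differences of 0.36 and 0.46, and for 11 of 18 genes of the citric acid cycle, with a median difference of 0.19. By group rather than by mouse, summed hepatocyte markers were 173040 to 206313 CPM in LDP-microbiota and 138912 to 177045 CPM in control-microbiota recipients. Summed pancreatic acinar markers were 41.6 to 55.8 against 19.7 to 34.7 CPM. Of these 6 markers, Cela2a, Cpa1 and Amy2a5 were at 0 in both groups and Pnlip in LDP-microbiota recipients, and only 1 was high enough to be tested. The part of depth, scaling or cell makeup in the subunit result was not tested.

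**Figure D4:**
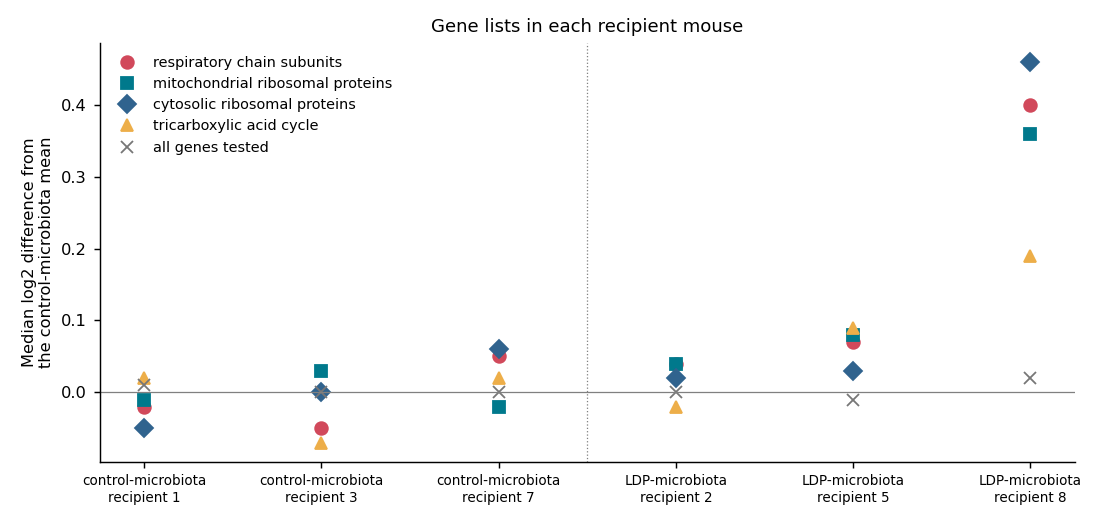
Median log2 difference from the mean of the 3 control-microbiota recipients (vertical axis) for 5 gene sets in each recipient mouse (horizontal axis). All sets but that of all genes tested (0.02) are higher in recipient 8, from 0.19 for the citric acid cycle to 0.46 for cytosolic ribosomal proteins, and recipients 2 and 5 lie near the controls.

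Complex I held 12 of the 19 members without overlap on the higher side. Ndufb10, an accessory subunit of the membrane arm, measured 85.5, 85.3 and 85.6 CPM in controls 1, 3 and 7 and 94.5, 99.6 and 128 CPM in recipients 2, 5 and 8. All 3 lay above the nearly equal controls, and the log2 change was 0.33 (SE 0.133, 95% interval 0.03 to 0.63, adjusted p = 0.846 by edgeR), or 0.19 without recipient 8. Ndufv3, an accessory subunit of the NADH-oxidising arm, measured 57.9, 62.5 and 55.5 CPM in controls and 63.2, 71.9 and 85.9 CPM in recipients 2, 5 and 8 (log2 change 0.33, adjusted p = 0.846). Ndufa7, also of the matrix arm, measured 67.4, 67.1 and 73.7 CPM in controls and 75.9, 83.7 and 92.6 CPM in recipients 2, 5 and 8 (log2 change 0.28, adjusted p = 0.846). The other members of complex I without overlap were Ndufa9, Ndufa10, Ndufa13, Ndufb2, Ndufb6, Ndufb7, Ndufb8, Ndufs3 and Ndufs6. Among these only Ndufs3 is a core subunit, at 45.7 ± 1.69 CPM in control and 53.9 ± 4.07 CPM in LDP-microbiota recipients (log2 change 0.24, adjusted p = 0.846).

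Grouped by role, the median log2 change in recipients was 0.13 for the 7 core subunits of complex I, 0.22 for the 12 Ndufa subunits and 0.26 for the 10 Ndufb subunits, of which all 10 were higher. Whether core and accessory subunits differed was not tested, and the intervals of single members, 0.31 to either side in the median, were wider than the gaps between these medians. On the lower side of complex I were Ndufs7 (-0.05), Ndufs4 (0.00 after rounding) and Ndufs5 (-0.36, 95% interval -1.86 to 1.15). Ndufs5 had 28 to 35 counts in each recipient group, so that its value carries little weight.

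In complex II, Sdha, the flavoprotein that oxidises succinate, measured 511, 451 and 463 CPM in controls 1, 3 and 7 and 527, 555 and 518 CPM in recipients 2, 5 and 8. It did not overlap between the groups, and here recipient 8 was the lowest of its group (log2 change 0.17, adjusted p = 0.846). The iron-sulfur subunit Sdhb averaged 199 ± 23 CPM in control and 225 ± 24.1 CPM in LDP-microbiota recipients, and the membrane anchors Sdhc and Sdhd had log2 changes of 0.19 and 0.04. In complex III the changes ran from 0.04 for Cyc1 to 0.24 for Uqcrc1, a core protein, and Uqcr11, a small accessory subunit, and the groups overlapped for all 9 members. The Rieske iron-sulfur protein Uqcrfs1 averaged 202 ± 8.87 and 230 ± 32.3 CPM (SD, n = 3 each), a log2 change of 0.18. In complex IV, Cox4i1, the first nuclear subunit to join the mitochondrially encoded core, measured 252, 285 and 294 CPM in controls and 275, 306 and 408 CPM in recipients 2, 5 and 8 (log2 change 0.25, adjusted p = 0.846). Its groups overlapped, as did those of the other 13 tested members of this complex.

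The ATP synthase contained both the 5 higher members without overlap (Atp5c1, Atp5e, Atp5f1, Atp5g3 and Atp5j) and the 1 lower member. Atp5e, the epsilon subunit of the rotor, measured 114, 118 and 123 CPM in controls and 127, 130 and 185 CPM in recipients 2, 5 and 8 (log2 change 0.32, adjusted p = 0.846). The alpha subunit gene Atp5a1 varied widely within both groups. It measured 1368, 942 and 1664 CPM in control-microbiota recipients 1, 3 and 7 and 1058, 1078 and 1529 CPM in LDP-microbiota recipients 2, 5 and 8. Its partner in the catalytic head, Atp5b, stayed between 1235 and 1326 CPM in the same controls. In the C57BL6J females Atp5a1 lay between 908 and 1045 CPM, and the higher values of recipients 1, 7 and 8 had no counterpart there.

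The smallest p of any subunit in any comparison was that of Atp5g1, which encodes subunit c of the proton-driven ring. Atp5g1, Atp5g2 and Atp5g3 differ in the targeting peptide that import removes, and yield the same mature protein. Atp5g1 measured 45.2, 38.9 and 40.4 CPM in control-microbiota recipients 1, 3 and 7 and 30, 29 and 17.8 CPM in LDP-microbiota recipients 2, 5 and 8. All 3 recipients of LDP-shaped microbiota lay below all 3 controls, and recipient 8, high for most subunits, was the lowest here. The log2 change was -0.70 (SE 0.195, 95% interval -1.14 to -0.25), which is 0.617 times the control level and did not pass adjustment (adjusted p = 0.846 by edgeR over all genes). Without recipient 8 it was -0.49 (adjusted p = 0.74 by edgeR).

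Atp5g3, the main gene of the 3 by reads, went the other way in the same mice. It measured 320, 313 and 350 CPM in controls 1, 3 and 7 and 351, 384 and 437 CPM in recipients 2, 5 and 8, a log2 change of 0.25 (adjusted p = 0.846). The groups did not overlap, though recipient 2 and control 7 were within 1 CPM or so of each other. Atp5g2 was at 0.705 to 1.46 CPM in the recipients, too low to say more than that its log2 change was 0.05 with a 95% interval from -0.78 to 0.88.

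As a share of the reads of these 3 genes, Atp5g1 held 12.3%, 11% and 10.3% in controls 1, 3 and 7 and 7.88%, 7.01% and 3.91% in recipients 2, 5 and 8. The last of these has a 95% Wilson interval from 3.58% to 4.26%, which covers counting error only. Group means were 11.2% ± 1.02 and 6.26% ± 2.09 (SD, n = 3 each). In C57BL6J females the share was 8.86% ± 0.824 in controls and 9.0% ± 0.258 with LDP, and in males 16.0% ± 0.546 and 16.0% ± 0.471, so that the LDP and control groups overlapped there. Atp5g1 itself averaged 34.3 ± 2.19 CPM in control and 32.2 ± 2.82 CPM in LDP females, and 60.9 ± 1.36 and 61.4 ± 4.87 CPM in control and LDP males. Control-microbiota recipients had the highest Atp5g1 of the 4 female groups, but strain and colonisation differ from the C57BL6J mice and this was not tested.

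**Figure D5:**
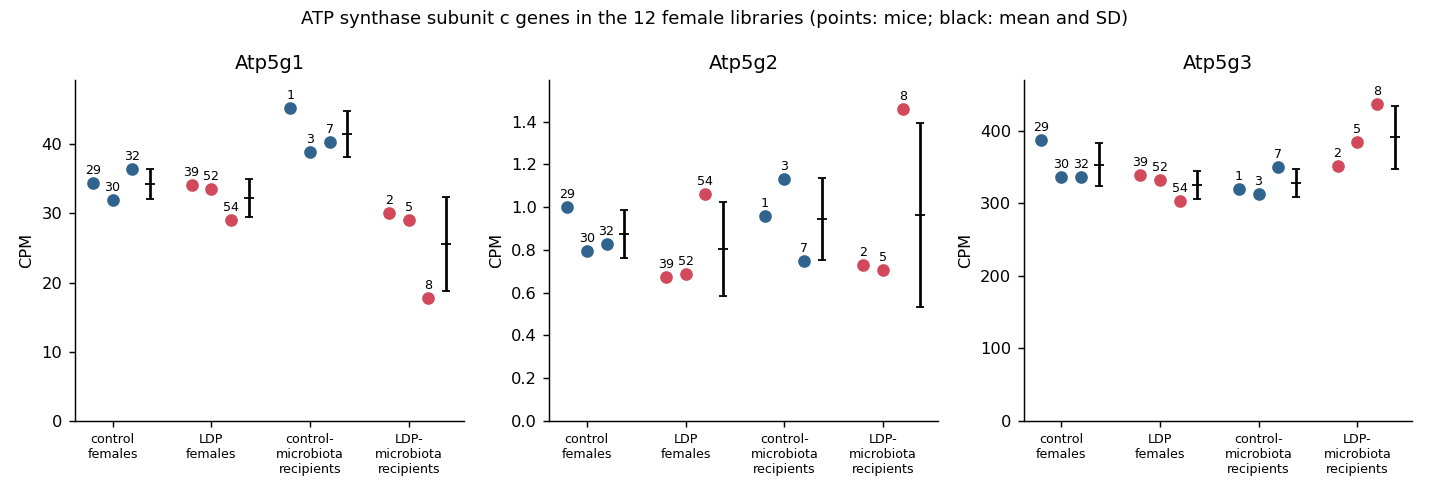
CPM of Atp5g1, Atp5g2 and Atp5g3 (vertical axes from 0, a scale for each gene) in the 12 female libraries by group; points are mice with their numbers, black bars the mean and SD of 3. Atp5g1 lies at 17.8 to 30 in LDP-microbiota and 38.9 to 45.2 in control-microbiota recipients, and Atp5g3 in the reverse order at 351 to 437 and 313 to 350.

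Atp5g1 and Atp5g3 had log2 changes of opposite sign in recipients, though neither passed adjustment, and Atp5g2 showed no clear direction. The promoters of these genes for subunit c are shown to compare the letters upstream of each. The lines give the 250 bases before the RefSeq start of each gene in GRCm38.p6, the build of these coordinates, read along the gene's strand, with capitals marking a match to the NRF1 motif, which reads GCGC, any base, then TGCGC:
Atp5g1 (chr11:96075632-96075881, minus strand): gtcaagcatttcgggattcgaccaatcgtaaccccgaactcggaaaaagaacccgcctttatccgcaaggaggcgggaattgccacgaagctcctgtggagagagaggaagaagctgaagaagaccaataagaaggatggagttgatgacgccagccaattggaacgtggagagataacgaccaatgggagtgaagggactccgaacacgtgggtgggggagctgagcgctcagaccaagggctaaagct
Atp5g2 (chr15:102671048-102671297, minus strand): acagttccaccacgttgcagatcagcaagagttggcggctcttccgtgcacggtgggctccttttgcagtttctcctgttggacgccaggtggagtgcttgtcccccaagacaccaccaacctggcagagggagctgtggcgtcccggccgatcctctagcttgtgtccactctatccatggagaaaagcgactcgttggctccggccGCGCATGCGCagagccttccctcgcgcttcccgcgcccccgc
Atp5g3 (chr2:73911327-73911576, minus strand): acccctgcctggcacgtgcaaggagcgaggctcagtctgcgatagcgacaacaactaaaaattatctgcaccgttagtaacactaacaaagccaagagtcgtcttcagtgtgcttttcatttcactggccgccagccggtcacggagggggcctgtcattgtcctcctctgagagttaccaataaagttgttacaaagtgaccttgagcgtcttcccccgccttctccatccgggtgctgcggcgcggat
The window searched runs from 250 bases before to 50 after the start. Atp5g2 has a match that begins 42 bases before its start. Atp5g3 has one that begins 13 bases after its start, beyond the stretch shown. In Atp5g1 these letters were not found in the window. The table of promoters has an entry for 68 of the 86 members, and 17 of the 68 (25%) hold the NRF1 motif on either strand, compared with 5.19% of 27025 genes and 11.1% of the 9191 genes with an entry that were tested in recipients. They include Atp5c1, Atp5h, Atp5k and Atp5o of the ATP synthase, Ndufa5, Ndufa6, Ndufa8 and Ndufs6 of complex I, Sdha and Sdhd, Uqcrc1 and Cox6a1. The ETS motif CCGGAAGT, which GABPA binds, was found in 5 members (7.35%, with 8.7% of tested genes), and the YY1 motif, AAGATGG followed directly by CGGC, in 4 (5.88%, with 1.73% of tested genes): Ndufa9, Ndufs4, Ndufs6 and Ndufs7. A match in letters does not show that a factor binds, and whether these letters relate to the changes was not tested.

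The effect in females could be set against that in recipients without shared controls. The difference of the log2 changes, females minus recipients, was negative in 76 of 81 members, with a median of -0.23, and 0 were called by edgeR or DESeq2 (0.0% of all genes by edgeR). The smallest adjusted p was 0.788, and 10 members had an unadjusted p under 0.05 (5.94% of all genes). These included Ndufb6 (-0.43, SE 0.152), Ndufa7 (-0.41, SE 0.16) and Atp5g3 (-0.39, SE 0.161). In the other direction stood Atp5g1, at 0.60 (SE 0.231, 95% interval 0.1 to 1.09). Without recipient 8 the median was -0.11, 19 of 81 were positive and 2 had an unadjusted p under 0.05. That last count was also 2 without LDP female 54 or without control female 29, and 26 without recipient 2. The shares of all genes in these fits with a mouse left out are not given here. Strain, colonisation and the drug itself differ between these effects and cannot be told apart.

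No difference between the male and the female LDP effect passed the test for any subunit. Sex and count table are the same split and cannot be told apart here. Male minus female differences had a median of 0.04 over 81 members, 54 of them positive, 0 were called (0.0% of all genes), and 0 had an unadjusted p under 0.05 (2.71% of all genes). The smallest p was that of Ndufb4, a membrane-arm subunit of complex I, at 0.28 (SE 0.211, adjusted p = 1.0 by edgeR). On the negative side it was that of Ndufa12, a matrix-arm subunit, at -0.15 (SE 0.132). Without LDP female 54 the count of positive differences was 40 of 81, and the median -0.01, while without LDP male 10 it was 74 (median 0.11).

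Genes around the chain were read from lists beside the members. In recipients, 20 of 25 tested assembly factors were higher (median log2 change 0.10), 14 of 18 citric acid cycle genes (0.09), 16 of 17 genes of ubiquinone synthesis, cytochrome c and the electron transfer flavoprotein with its dehydrogenase (0.17), 72 of 76 mitochondrial ribosomal proteins (0.16) and 68 of 75 cytosolic ribosomal proteins (0.18). No gene of these lists passed the adjustment. Nubpl, which delivers iron-sulfur clusters to complex I, measured 8.95, 8.21 and 10.4 CPM in controls 1, 3 and 7 and 11.9, 11.2 and 14.8 CPM in recipients 2, 5 and 8 (log2 change 0.46, adjusted p = 0.846). Idh2, the NADP-dependent mitochondrial isocitrate dehydrogenase, measured 163, 139 and 134 CPM in controls and 165, 227 and 212 CPM in recipients 2, 5 and 8 (log2 change 0.47, adjusted p = 0.846). Recipient 2 stood just above control 1, and the other two lay well above.

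A list of 17 regulators of mitochondrial biogenesis held transcription factors and coactivators of nuclear subunit genes together with factors that copy or transcribe mitochondrial DNA, such as Polg and Tfam. In recipients 8 of the 17 were higher and 9 lower, with a median of 0.00. All 3 LDP-microbiota recipients lay below all controls for 3 of them (5.5% of all genes) and above for 1 (6.1%). An unadjusted p under 0.05 was found for 3 (5.11% of all genes), Ppargc1b, Gabpb2 and Hcfc1, each with a negative change. Ppargc1b, a coactivator of the PGC-1 family, measured 5.56, 5.46 and 5.46 CPM in controls 1, 3 and 7 and 4.00, 4.88 and 3.18 CPM in recipients 2, 5 and 8. It was lower in all 3, with a log2 change of -0.46 (adjusted p = 0.846 by edgeR). Ppargc1a, its better known relative, measured 25.5, 15.8 and 26.3 CPM in controls and 22.5, 12.3 and 11.7 CPM in recipients 2, 5 and 8, with overlap (log2 change -0.54, adjusted p = 0.846). Hcfc1, a cofactor of GABPA and YY1 target promoters, had a log2 change of -0.33 (SE 0.138, adjusted p = 0.846), and Gabpb2, a partner subunit of GABPA, one of -0.37 (SE 0.157, adjusted p = 0.846). Tfam, the packaging and transcription factor of mitochondrial DNA, averaged 57.7 ± 3.52 CPM in control and 63.9 ± 2.19 CPM in LDP-microbiota recipients (log2 change 0.15, adjusted p = 0.846).

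With LDP, the median of the regulators was 0.02 in males (11 of 19 higher) and -0.05 in females (10 of 17 lower). The medians of the 5 other lists that follow lay at or below 0 in both sexes. Citric acid cycle genes had medians of -0.03 in males (12 of 18 lower) and -0.07 in females (14 of 18 lower), assembly factors -0.02 (25 of 43) and -0.03 (15 of 26), and mitochondrial ribosomal proteins -0.04 (50 of 76) and -0.05 (54 of 76). The genes of ubiquinone, cytochrome c and the electron transfer flavoprotein had medians of -0.03 (11 of 17 lower) and -0.10 (13 of 17 lower). Cytosolic ribosomal proteins had medians of -0.03 in males, with 60 of 76 lower, and 0.00 in females, with 40 of 76 lower. In males 5 of them were lower without overlap (4.81% of all genes). No gene of these lists had an adjusted p under 0.05. Tfam changed by 0.02 and -0.07 and Ppargc1a by 0.07 and -0.09 on the log2 scale, with adjusted p between 0.931 and 0.999 by edgeR. The 13 protein-coding genes of mitochondrial DNA are in the male table, where 12 were tested and their median log2 change was 0.04 (range -0.46 to 0.63). The female table has no row under these symbols, so they were not followed there.

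Some members may not be counted alike in the tables. Ndufs5 averaged 19.5 ± 0.3 CPM in control males and 0.988 ± 0.0854 CPM in control females, Cox7c 58.1 ± 1.08 and 10.9 ± 1.02 CPM, and Atp5g2 12.8 ± 0.204 and 0.875 ± 0.112 CPM (SD, n = 3 each). Sex and counting cannot be told apart here. Many subunit genes have processed pseudogenes that resemble their transcripts, and how reads matching several places were counted is not given in the sources used here, so single levels of such genes, Atp5g1 included, are uncertain.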

How the data were processed

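Liver RNA of 18 mice was sequenced as 1 library each (RNeasy Mini extraction and TruSeq v2 preparation per the labels' protocols). The authors deposited raw gene counts, with the 6 males and the 12 females in separate tables. Per the submitters' processing notes, featureCounts 1.4.3-p1, HTSeq 0.5.3p9, STAR 2.3.0e, DESeq and the mm10 build were used, in roles that are not given in the sources used here. Strand use is not stated, so overlapping genes cannot be told apart. Male Ensembl IDs were matched to GENCODE M21 symbols (37607 of 38924, 96.6%).

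Members, gene lists and tests were chosen with earlier results of these data known. The labels number separate mice but give no cage, litter or donor, so p-values measure the spread between these mice. Each comparison of 3 against 3 was fitted over all genes kept by filterByExpr (minimum count 10, minimum total 15) with edgeR 4.0.16 in R 4.3.3: TMM scaling, robust quasi-likelihood F test, Benjamini-Hochberg threshold 0.05. Differences of effects used 1 coefficient per group. SEs were derived from F statistics. Differences per mouse are of log2(CPM + 0.5). Subgroups of complexes I and V were chosen after values were seen. Members were named by role, as isoforms, or by smallest p per complex and direction; members whose groups did not overlap, Atp5a1's spread and the genes compared between tables were picked after their values were seen. A member is not reported here by name, though it counts in the totals. Promoters are RefSeq windows in GRCm38.p6. The fit was tested on simulated counts. It recovered 56%, 28% and 11.2% of 1.5-fold changes in males, females and recipients, and 69.7%, 77% and 72% of 2-fold changes. Of 139, 114 and 91 genes called, 14, 9 and 8 were false calls. Alternatives were DESeq2 1.42.0, other scaling factors, a non-robust fit, no filter or one at a mean of 1 CPM, 12 libraries sharing the spread, and leaving out each mouse.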

Additional observations from a re-analysis of the deposited data

How the results depend on the processing

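No respiratory chain member was called under any of the alternatives. Under every one, the median change of the members and of each complex moved by less than the SD of the mouse medians within groups. That SD includes the mouse left out, and recipient 8 widened it in recipients, so it cannot judge the fit without recipient 8. There the median of the members went from 0.19 to 0.07, and 15 members changed sign. The turns of direction with a mouse left out are given above. Counts of all genes called moved more. In males, where 1 gene was called, the count was 0 with 12 libraries sharing the spread, 2 with no filter on low counts and 42 with DESeq2, and 0 to 66 with a mouse left out. In females, where 0 were called, it was 1 with no filter, 15 with DESeq2 and 0 to 1 with a mouse left out. In recipients, where 1 was called, it was 3 with shared spread, 2 with no filter, 28 with DESeq2 and 0 to 4 with a mouse left out. For the difference between males and females, 0 in the fit reported, DESeq2 gave 1 and leaving out a mouse 0 to 1; for females against recipients, also 0, it was 12 and 0 to 3. The cause was not tested. With shared spread, 19 members had an unadjusted p under 0.05 in recipients, against 4 in the fit reported (5.11% of all genes there). The share of all genes with shared spread is not given here, so this rise cannot be read as particular to the members. No paired analysis was made, because the labels give no cage, litter or donor by which mice could be paired. With 3 mice a group, the median 95% half-widths of 0.18 to 0.31 on the log2 scale describe single intervals and are no detection limit after adjustment over all genes: Atp5g1 at -0.70 in recipients was not called.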
